A study of Mus musculus with 3 samples.

Results

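Broad cluster 17 is a group of nuclei from the mouse lateral septum whose marker list names the vesicular glutamate transporter gene Slc17a7, the transcription factor gene Neurod2 and the growth factor gene Bdnf. Its members here are the 50 genes that the authors' marker table of 25 broad clusters lists for it, of 834 different genes in that table and 1039 in all 3 deposited tables. The tissue came from 8 naïve male C57BL/6J littermates aged 3 months, all of 1 strain, and was taken as punches of 500 µm from sections of 200 µm. Tissue of all mice was combined before fluorescence-based sorting of nuclei, and RNA of this single pool was sequenced as 3 droplet libraries, so a library is not an animal. Per the labels' protocols, pieces of medial septum, triangular septum, prefrontal cortex or striatum may have been included. There is 1 group and no treatment, and the only comparison is between clusters. Each gene has 1 value per cluster, a log2 fold change against all other nuclei and the percentage of nuclei in which it was detected inside and outside the cluster. Values per library or animal were not used, depth is unknown, and so are nucleus counts. No value below therefore has a replicate error or a test.

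Excitatory neurons of the telencephalon package glutamate into synaptic vesicles with the transporter encoded by Slc17a7, and many other glutamatergic neurons of the brain use Slc17a6. Neurod2 and Neurod6 encode basic helix-loop-helix factors that bind E-box sequences and act in the differentiation and maturation of cortical and hippocampal excitatory neurons. BDNF is a neurotrophin made by such neurons, is induced by activity and is carried along their axons. The lateral septum itself is built mainly of GABAergic neurons and receives glutamatergic input from the hippocampus.

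All 3 genes of the label were listed, but they did not lead the list. Of 15 markers of telencephalic excitatory neurons, 8 are in the table and 4 were listed for cluster 17 (Slc17a7, Neurod2, Neurod6 and Bdnf). Clusters 13 and 7 also listed 4 each, cluster 15 listed 3 and cluster 23 listed 2. The largest log2 fold changes belonged to Prdm8, Olfml2b, Ednra, Igfbp4 and Il16. For comparison, 6.00% of the table's genes were listed for cluster 17, and nothing further is read from the count because these nuclei were grouped by their expression. In the authors' deposited table Slc17a7 was detected in 45.0% of the nuclei of cluster 17 and in 6.7% of all others, with a log2 fold change of 2.98. Neurod2, at 4.16, was detected in 27.8% inside and 1.8% outside in the authors' deposited table. Bdnf, at 3.54, was detected in 18.7% inside and 1.6% outside in the authors' deposited table. By log2 fold change Neurod2 ranked 9 of 50, Bdnf 14 and Slc17a7 24.

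Lists of markers of other cell types gave 3 genes. Hs3st4, an enzyme gene of heparan sulphate synthesis, was 1 of the 7 layer 6 markers in the table. The zinc finger factor gene Zbtb20 was 1 of the 4 CA1 markers in the table. The bicarbonate transporter gene Slc4a4 was 1 of the 7 astrocyte markers in the table. The count was 0 for 11 markers in the table of oligodendrocytes with their precursors, 10 of striatal medium spiny neurons, 10 of interneurons, 6 of layer 5 neurons, 6 of lateral septum GABAergic neurons, 5 of upper layer neurons and 5 of medial and triangular septum. It was also 0 for 3 markers each of CA2 and CA3, of dentate granule cells and of subiculum, and for 2 of claustrum, while no microglia or vascular marker of the list is in the table. With 6.00% of the table's genes listed for cluster 17, counts from lists this short are near the background, and nothing is read from them. A gene missing from a list of 50 can still be expressed in the cluster.

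The list holds genes of very different kinds, as the plot of detection inside and outside the cluster shows. In the authors' deposited table, log2 fold changes ran from 1.05 to 6.40 with a median of 2.96, and detection inside ran from 13.6% to 100% with a median of 83.2%. Over all 1250 listings of the broad table the medians were 2.11 and 45.8%. Of the 50 genes, 21 were detected in at least 90% of the cluster's nuclei, against 15.0% of all listings, and this count and the median detection inside were the highest of the 25 clusters. At the other end, 11 genes were detected in under 30% of the nuclei inside, with a median log2 fold change of 4.16. Detection outside was under 5% for 15 of the 50 genes, against 30.2% of all listings. Detection inside reached 25% for 42 of the 50 genes, against 73.5% of all listings.

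**Figure D1:**
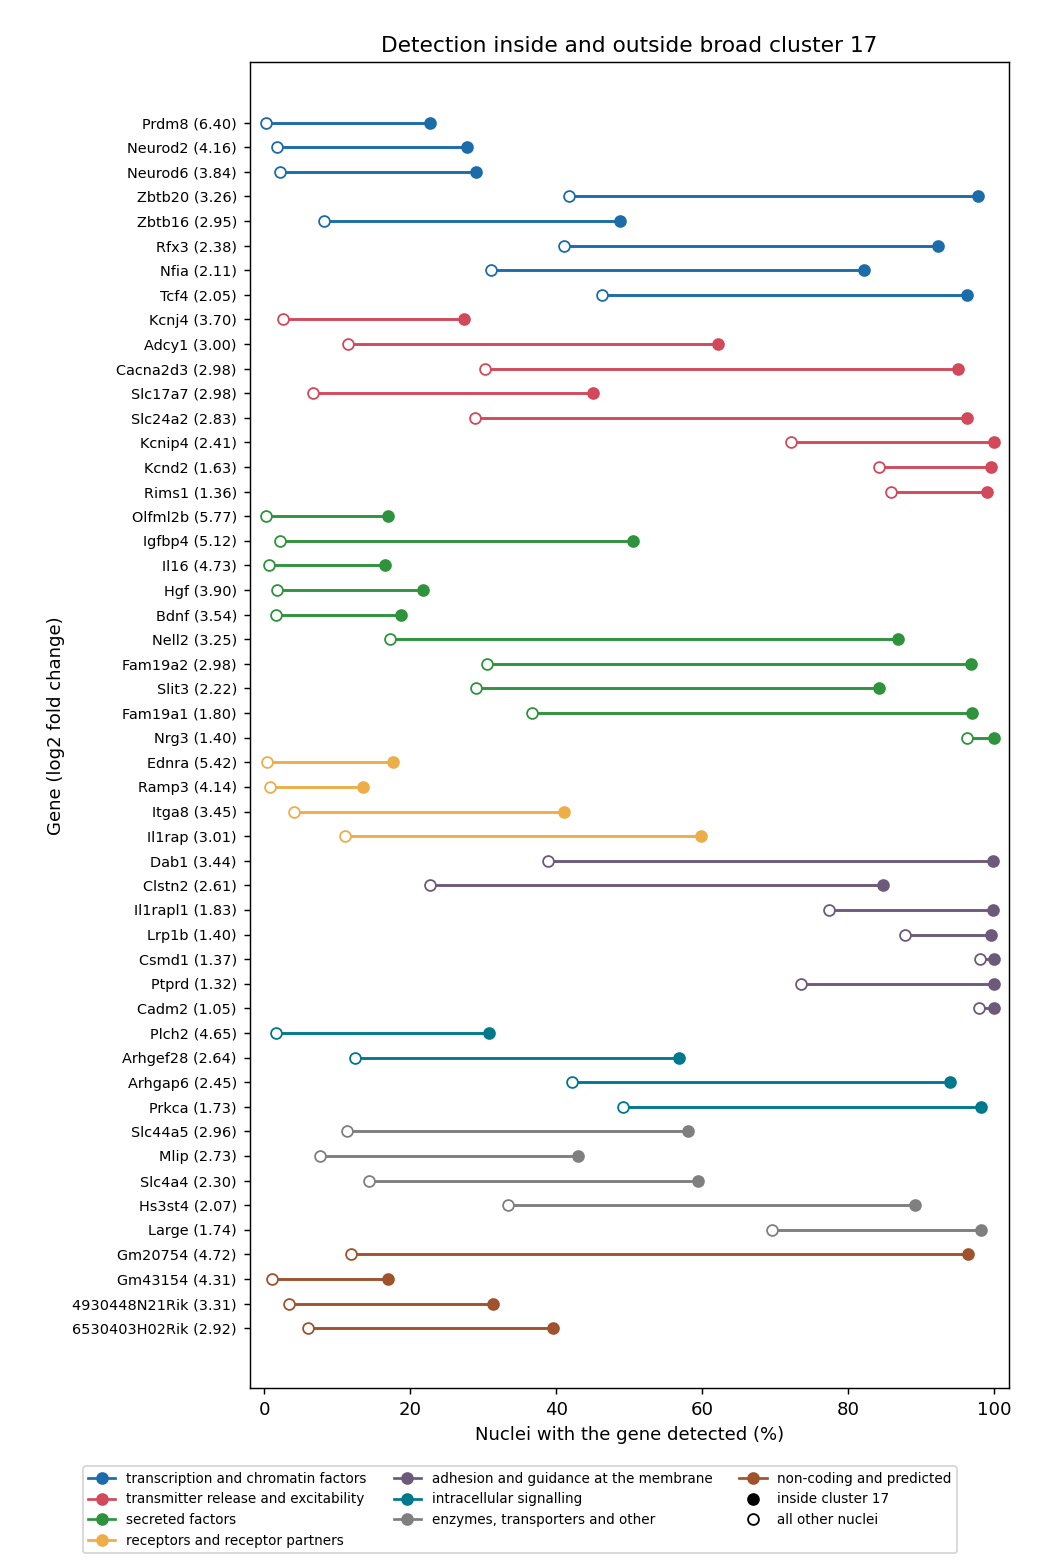
Percentage of nuclei in which each of the 50 genes of cluster 17 was detected, inside the cluster (filled points) and in all other nuclei (open points), grouped by role, with the log2 fold change in parentheses. The transcription factor gene Prdm8 runs from 0.3% to 22.7%, while the adhesion gene Cadm2 stays near the right edge at 97.9% and 100%.

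The 8 genes of transcription and chromatin factors were detected in 22.7% to 97.8% of the nuclei inside in the authors' deposited table. Prdm8, which encodes a factor of the PRDM family known as a repressor in neural development, had the largest log2 fold change of the list, 6.40, with detection of 22.7% inside and 0.3% outside in the authors' deposited table. Neurod6 stood close to Neurod2, at 3.84 with 29.0% inside and 2.1% outside in the authors' deposited table. Zbtb16, a zinc finger factor gene, was at 2.95 with 48.7% and 8.2% in the authors' deposited table. The other 4 were detected in most nuclei of the cluster and in many others. These were Zbtb20 (3.26, 97.8% against 41.7%), Rfx3, a regulator of cilia genes (2.38, 92.3% against 41.0%), Nfia, a nuclear factor I gene (2.11, 82.2% against 31.1%), and the E-protein gene Tcf4 (2.05, 96.3% against 46.3%) in the authors' deposited table. E-proteins are the usual dimer partners of Neurod factors.

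The promoters of Neurod2, Neurod6, Prdm8 and Slc17a7 are shown. Slc17a7 and Neurod2 are genes of the label, Prdm8 had the largest log2 fold change of the list, and Neurod6 is the paralog of Neurod2 that clusters 13 and 23 also list. Bdnf has 7 windows in the reference, of which 1 holds the motif, and they are not shown. Each runs from 250 bases before the start site to 50 after it, 5′ to 3′ on the gene's strand, from RefSeq on GRCm38.p6, and capitals mark the E-box CAGATG on either strand, a form that Neurod factors are known to bind.
Neurod2, chr11:98329596-98329895, minus strand: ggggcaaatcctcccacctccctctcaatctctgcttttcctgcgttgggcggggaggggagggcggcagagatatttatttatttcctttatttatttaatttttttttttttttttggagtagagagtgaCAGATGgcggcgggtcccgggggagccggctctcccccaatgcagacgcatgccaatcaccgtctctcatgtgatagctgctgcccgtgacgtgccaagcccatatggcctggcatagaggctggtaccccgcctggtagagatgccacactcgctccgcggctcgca
Neurod6, chr6:55681214-55681513, minus strand: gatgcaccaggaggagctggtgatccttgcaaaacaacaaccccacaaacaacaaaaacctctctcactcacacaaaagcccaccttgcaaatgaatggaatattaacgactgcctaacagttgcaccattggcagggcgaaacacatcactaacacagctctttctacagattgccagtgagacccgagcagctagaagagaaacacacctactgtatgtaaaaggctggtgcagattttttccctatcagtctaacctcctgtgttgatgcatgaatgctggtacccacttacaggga
Prdm8, chr5:98180619-98180918, plus strand: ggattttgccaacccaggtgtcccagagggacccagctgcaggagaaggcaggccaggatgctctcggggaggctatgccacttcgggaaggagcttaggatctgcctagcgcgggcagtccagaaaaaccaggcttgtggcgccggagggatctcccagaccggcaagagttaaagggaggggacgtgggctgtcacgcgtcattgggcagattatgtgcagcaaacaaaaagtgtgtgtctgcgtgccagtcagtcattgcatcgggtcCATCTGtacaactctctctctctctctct
Slc17a7, chr7:45163671-45163970, plus strand: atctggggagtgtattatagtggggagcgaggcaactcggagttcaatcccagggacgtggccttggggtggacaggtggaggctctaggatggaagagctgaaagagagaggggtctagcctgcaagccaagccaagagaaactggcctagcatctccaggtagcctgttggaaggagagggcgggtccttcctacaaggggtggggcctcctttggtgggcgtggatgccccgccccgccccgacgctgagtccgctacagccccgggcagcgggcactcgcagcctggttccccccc
The motif was present in the windows of Neurod2, starting 118 bases before the start site, and of Prdm8, starting 21 bases after it, and these letters were not in the windows of Neurod6 and Slc17a7. Of the 39 genes of the list with a promoter entry, 9 (23.1%) had the motif in at least 1 window. The motif was in 17.3% of the 608 broad table genes with an entry, 19.2% of all 27025 genes and 17.2% of all 32851 windows. The motif was searched on both strands, and a match describes letters only.

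Genes of transmitter release and excitability made up 8 of the list. Besides Slc17a7 they included Adcy1, the adenylyl cyclase stimulated by calcium and calmodulin, at 3.00 with 62.1% inside and 11.5% outside in the authors' deposited table. Kcnj4, an inward rectifier potassium channel gene, was at 3.70 with 27.4% against 2.6% in the authors' deposited table. The calcium channel subunit gene Cacna2d3 (2.98, 95.1% against 30.2%) and the sodium-calcium-potassium exchanger gene Slc24a2 (2.83, 96.3% against 28.9%) were detected in nearly every nucleus of the cluster in the authors' deposited table. Kcnd2, the A-type channel gene, and Kcnip4, which encodes an auxiliary protein of that channel family, were both listed. Kcnip4 was at 2.41 with 100% against 72.1% and Kcnd2 at 1.63 with 99.6% against 84.2% in the authors' deposited table. The active zone gene Rims1 was at 1.36 with 99.0% against 85.9% in the authors' deposited table. Potassium channel genes and their partners gave 3 of the 14 such genes in the table, and glutamate receptor genes 0 of 15. The share of all the table's genes listed for cluster 17 was 6.00%. Clusters 14 and 15 each listed 3 potassium channel genes too, and nothing is read from these counts.

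Secreted factors were the largest role group, with 10 genes. Of these, 6 were listed for no other broad cluster, beside 22 of all 50 genes, and 56.2% of all listings were of genes listed more than once. Olfml2b, an olfactomedin-like gene of the extracellular matrix, was second in the list at 5.77 with 17% inside and 0.3% outside in the authors' deposited table. Igfbp4, which encodes a binding protein of insulin-like growth factors, was at 5.12 and combined a large fold change with wide detection, 50.5% inside against 2.2% outside in the authors' deposited table. Il16, a cytokine gene, was at 4.73 with 16.6% against 0.7%, and Hgf, the hepatocyte growth factor gene, at 3.90 with 21.7% against 1.7% in the authors' deposited table. Nell2, a secreted protein gene with epidermal growth factor-like repeats, reached 86.8% inside against 17.2% outside at 3.25 in the authors' deposited table. Fam19a2 and Fam19a1 encode small secreted proteins of the nervous system. In the authors' deposited table Fam19a2 was at 2.98 (96.8% inside, 30.5% outside) and Fam19a1 at 1.80 (97.0% inside, 36.7% outside). The guidance cue gene Slit3 was at 2.22 (84.2% against 29.0%) and the neuregulin gene Nrg3 at 1.40 (100% against 96.3%) in the authors' deposited table. Of 18 neuropeptide and related secreted genes in the table, 0 were listed for cluster 17, and of 4 activity-regulated genes in it 1 was listed, Bdnf. With 6.00% of the table's genes listed for cluster 17, nothing is read from either count.

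Receptors and receptor partners were 4 genes, detected outside the cluster in 0.4% to 11.1% of nuclei in the authors' deposited table. Ednra, the endothelin A receptor gene, was at 5.42 with 17.6% inside and 0.4% outside in the authors' deposited table. Ramp3, whose product partners the calcitonin receptor-like receptor, was at 4.14 with 13.6% against 0.8%, the lowest detection inside of the list, in the authors' deposited table. Itga8, an integrin subunit gene, was at 3.45 (41.0% against 4.1%) and Il1rap, which encodes the accessory protein of the interleukin-1 receptor and also acts in synapse adhesion, at 3.01 (59.8% against 11.1%) in the authors' deposited table.

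Adhesion and guidance genes at the membrane showed the opposite profile, with a median log2 fold change of 1.40 over 7 genes and a median detection inside of 99.8%. Dab1, the adaptor of reelin signalling, stood out in this group at 3.44 with 99.8% against 38.9% in the authors' deposited table. The calsyntenin gene Clstn2 was at 2.61 with 84.8% against 22.7% in the authors' deposited table. Il1rapl1 (1.83), Lrp1b (1.40), Csmd1 (1.37), the receptor phosphatase gene Ptprd (1.32) and Cadm2 (1.05) were detected in 99.6% to 100% of the nuclei inside and in 73.6% to 98.1% outside in the authors' deposited table. Signalling genes included Plch2, a phospholipase C gene, at 4.65 with 30.8% against 1.6% in the authors' deposited table. In the authors' deposited table the protein kinase C gene Prkca was at 1.73 (98.2% inside, 49.1% outside). The signalling gene Arhgef28 was at 2.64 (56.8% inside, 12.4% outside) and Arhgap6 at 2.45 (93.9% inside, 42.2% outside) in the authors' deposited table. Among enzymes and transporters, the choline transporter-like gene Slc44a5 was at 2.96 (58.0% against 11.3%), Mlip, a muscle lamin-interacting protein gene, at 2.73 (43.0% against 7.7%) and Slc4a4 at 2.30 (59.4% against 14.4%) in the authors' deposited table. Hs3st4 was at 2.07 (89.2% against 33.4%) and the glycosyltransferase gene Large at 1.74 (98.2% against 69.5%) in the authors' deposited table.

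The non-coding transcript Gm20754 had the largest difference in detection of all 50 genes, 84.5 percentage points, with 96.4% inside against 11.9% outside and a log2 fold change of 4.72 in the authors' deposited table. It is annotated as a lincRNA on the plus strand of chromosome 3, from 73066316 to 73594830 (GRCm38, GENCODE M21). Gm43154 (4.31, 17% against 1.0%), 4930448N21Rik (3.31, 31.4% against 3.4%) and 6530403H02Rik (2.92, 39.6% against 6.0%) were the other transcripts of this kind in the authors' deposited table.

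Fold change and detection did not carry the same information over the list, as the plot of fold change against detection ratio shows. For the 11 genes detected in under 30% of the nuclei inside, the log2 fold change differed from the log2 ratio of detection by a median of 0.16. For the 21 genes detected in at least 90%, it was higher than the log2 ratio of detection by a median of 1.30. Kcnip4 is an example, with a log2 detection ratio of 0.47 and a log2 fold change of 2.41. Of these 21 genes, 10 were also detected in at least 50% of the other nuclei. Of the 10 genes of largest log2 fold change, 1, Gm20754, was also among the 10 of largest difference in detection. No source used here gives the pseudocount behind the fold change, which weighs most on sparse genes.

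**Figure D2:**
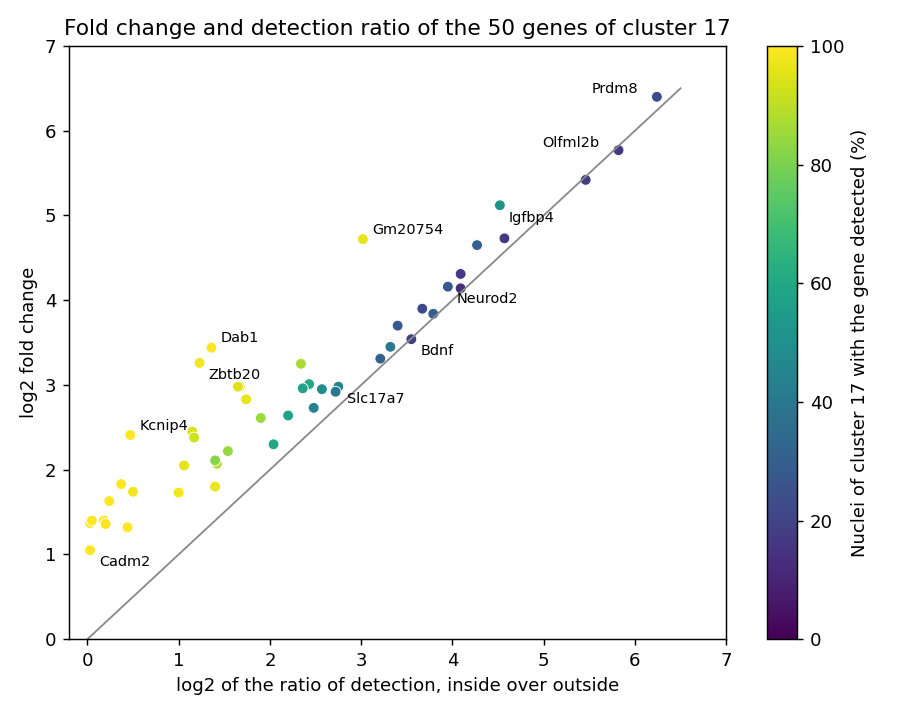
log2 fold change of the 50 genes against the log2 ratio of detection inside over outside, coloured by detection inside cluster 17 in percent, with the line of equality. Sparse genes such as Bdnf (3.54 against 3.55) lie on the line, and widely detected genes such as Dab1 (3.44 against 1.36) lie above it.

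Gene length differed with detection. In GENCODE M21 on GRCm38, the assembly of mm10, 49 of the 50 genes were found, with a median span of 345.7 kb against 131.3 kb for the 830 genes of the broad table that were found. The 21 genes detected in at least 90% of the nuclei inside spanned 247.4 kb or more, with a median of 544.0 kb. The 11 genes detected in under 30% spanned 192.9 kb or less, with a median of 38.3 kb. Nuclear RNA is rich in unspliced transcripts, to which long genes contribute more sites for priming, and the part of span in these detection values was not tested. Neurod2, Neurod6 and Bdnf are all in the sparse group. Neurod2 spans 4.2 kb on the minus strand of chromosome 11 from 98325415 to 98329648, Neurod6 3.4 kb on chromosome 6, and Bdnf 52.3 kb on the plus strand of chromosome 2 from 109674700 to 109727007.

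Cluster 17 was small. For a gene listed for several clusters, detection inside and outside must give the same overall detection from each, and solving these equations over 286 genes placed 1.75% of all nuclei in cluster 17. Rounding of the deposited fractions allows 1.62% to 1.86%. By the same calculation cluster 13 held 2.26% (2.19% to 2.36%), cluster 23 0.92% (0.84% to 0.93%) and cluster 7 5.05% (4.93% to 5.18%). These 4 clusters are those that list Slc17a7, and cluster 17 held 17.5% of their nuclei. The ranges cover rounding only, not differences between mice or libraries.

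From these shares, the part of all positive nuclei that lay in cluster 17 followed for each gene. It was highest for Prdm8 at 57.4% (51.6% to 63.3% from rounding), followed by Olfml2b at 50.2% (44.4% to 56.4%) and Ednra at 43.9% (39.1% to 48.8%). Il16 was at 29.7%, Igfbp4 at 29.0% and Plch2 at 25.5%. For the genes of the label the part was lower, 21.6% for Neurod2, 17.2% for Bdnf and 10.7% for Slc17a7. Most nuclei positive for Neurod2, Bdnf or Slc17a7 were therefore outside cluster 17. In the 21 clusters that do not list Slc17a7, it was detected in 2.76% of nuclei on average, and in the 22 that do not list Neurod6, that gene was detected in 1.30%. Free RNA in the droplets can add to such values, and its share is unknown.

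Set beside the other broad lists, cluster 17 shared more genes with cluster 7 than with any of the others. It shared 11 of its 50 genes with cluster 7, 8 with cluster 15, 7 each with clusters 14 and 23, 5 with cluster 21 and 4 each with clusters 13 and 22, and 0 with 8 of the 24 other clusters. The median over the 24 was 1, as it was over all 300 pairs of broad clusters. Clusters 13 and 23, by contrast, shared 20 of their 50 genes, the highest overlap of any pair. Of the 50 genes, 22 were listed for cluster 17 and no other broad cluster, and 28 were listed for at least 1 more, against 56.2% of all listings.

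**Figure D3:**
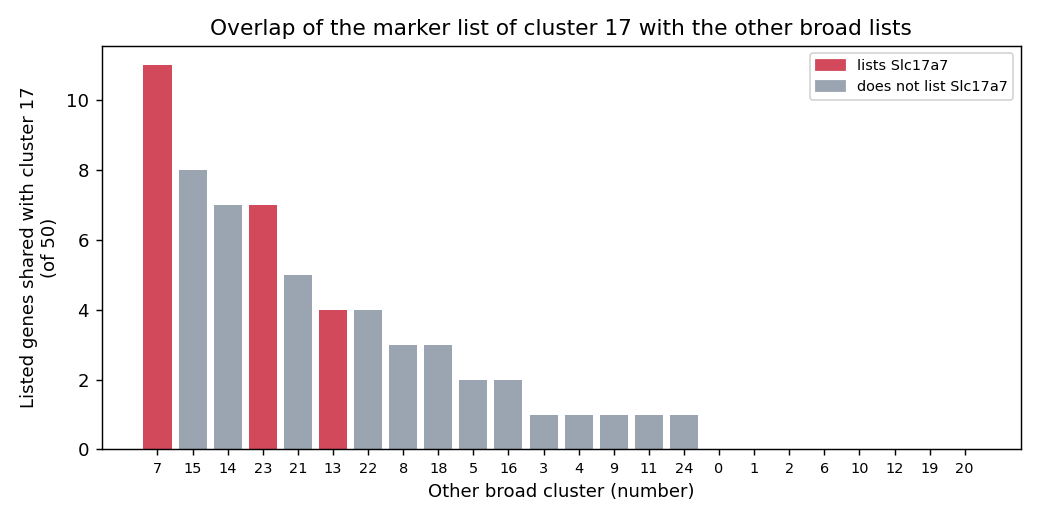
Number of the 50 listed genes that cluster 17 shares with each of the other 24 broad clusters, in order, with the clusters that list Slc17a7 in red. Cluster 7 shares 11 genes, clusters 15, 14 and 23 share 8, 7 and 7, and cluster 13 shares 4.

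Clusters 13, 17 and 23 had 4 listed genes in common, Slc17a7, Neurod6, Hs3st4 and Ptprd. Slc17a7 was detected in 45.0% of nuclei in cluster 17, 47.9% in cluster 13 and 43.8% in cluster 23 in the authors' deposited table. Neurod6 was detected in 29.0%, 24.3% and 30.1% in the same order in the authors' deposited table. Hs3st4 was detected in 89.2%, 93.2% and 93.4%, with log2 fold changes of 2.07, 3.19 and 2.47 in the authors' deposited table. Ptprd was detected in 100%, 99.8% and 100%, with a log2 fold change of 1.32 in cluster 17 against 2.49 and 2.31 in the others in the authors' deposited table. With cluster 23 but not cluster 13, cluster 17 also shared 6530403H02Rik, Kcnd2 and Kcnip4. Of these, 6530403H02Rik was detected in 39.6% in cluster 17 and 60.9% in cluster 23 in the authors' deposited table.

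The lists of clusters 13 and 23 named cortical layer genes that the list of cluster 17 did not. Cluster 13 listed 4 of the 13 layer 6 markers, Zfpm2, Hs3st4, Sulf1 and Ctgf, and clusters 17 and 23 each listed 1, Hs3st4. Of the 13, 7 are in the broad table. Ctgf, a matricellular gene of layer 6b, was at 6.02 (17.2% against 0.3%) in cluster 13 in the authors' deposited table. The cofactor gene Zfpm2 was at 3.22 (89.3% against 22.1%) there. Cluster 23 listed 4 of the 12 layer 5 markers, Tshz2, Nxph3, Fezf2 and Etv1, against 0 for cluster 17. Of the 12, 6 are in the broad table. As 6.00% of that table's genes were listed for each of clusters 13, 17 and 23, nothing is read from the 1 and the 0 of cluster 17. Of the 20 genes that clusters 13 and 23 shared, 16 were not listed for cluster 17, among them the chromatin factor gene Satb1, the neurexin ligand gene Nxph3 and the glutamate receptor gene Grm3. Of genes detected in at least 25% inside, those with the largest fold changes in cluster 13 were Prss12 (5.27), Rai14 (4.58), Gm28928 (4.53), Sulf1 (3.99) and Cntnap4 (3.67) in the authors' deposited table. In cluster 23 the leading genes were Tshz2 (6.17), Vwc2l (5.65), Gm26883 (5.5), Nxph3 (5.45) and Stard5 (4.32) in the authors' deposited table.

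**Figure D4:**
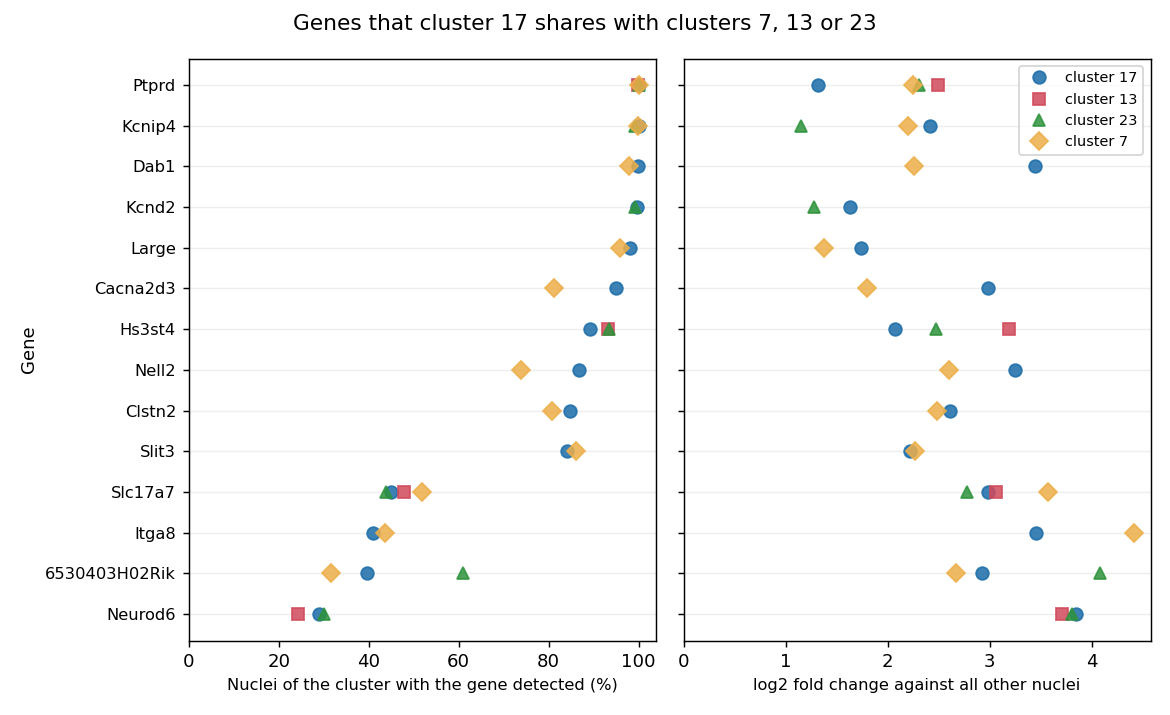
Detection in percent of nuclei (left) and log2 fold change against all other nuclei (right) in clusters 17, 13, 23 and 7 for the 14 genes that cluster 17 shares with at least 1 of the others. Detection of Slc17a7 lies between 43.8% and 51.8% in all 4 clusters, while 6530403H02Rik runs from 31.7% to 60.9%.

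Most genes shared with cluster 7 were widely detected in both. Dab1 was detected in 99.8% of nuclei in cluster 17 and 97.9% in cluster 7, with log2 fold changes of 3.44 and 2.26, in the authors' deposited table. Nell2 was detected in 86.8% and 73.8%, Cacna2d3 in 95.1% and 81.1%, Clstn2 in 84.8% and 80.7% and Slit3 in 84.2% and 86.1% in the authors' deposited table. Itga8 was detected in 41.0% and 43.6%, with a higher log2 fold change in cluster 7 (4.41 against 3.45), in the authors' deposited table. Cluster 7 also listed C1ql3, Slc30a3, Mef2c and Sv2b, which the list of cluster 17 did not have. Neither Neurod2 nor Neurod6 was listed for cluster 7.

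Absence from another list gives no value there, but detection outside cluster 17 sets a ceiling. If all positive nuclei outside cluster 17 that no listing accounts for lay in cluster 13, Prdm8 could be detected in at most 15.2% of its nuclei, against 22.7% in cluster 17. For Olfml2b the ceiling was also 15.2%, against 17%. These were 2 of the 46 genes not listed for cluster 13, and for the other 44 the ceiling was as high as the value in cluster 17 or higher. For all listings of genes not listed for cluster 13, the share under such a ceiling was 2.02%. For the smaller cluster 23 it was 0 of 43 genes, against 0.0882% of listings. Neurod2 and Bdnf had ceilings of 80.4% and 71.7% in cluster 13, so the ceilings do not show whether they were higher in cluster 17. The lists say more, as all 25 are in order of p. In the authors' deposited table cluster 13 listed the sparser genes Myocd (13.9% against 1.0%) and Gm2824 (15.1% against 1.2%), and cluster 23 Pamr1 (15.6% against 1.4%). If the lists were cut by p, Neurod2 or Bdnf at their detection in cluster 17 would probably be on both. The rule of the cut is not given in the sources used.

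Over clusters 7, 13 and 23 together, which held 8.22% of nuclei, the ceiling was tighter, as the plot of these ceilings shows. Of the 36 genes listed for none of these clusters, 11 had a highest possible mean detection there below their detection in cluster 17, against 14.1% of listings of such genes over the table. The ceilings come from the detection values of genes already picked as markers, so this count describes the list and is no test. Igfbp4 had a ceiling of 26.9% against 50.5% in cluster 17, Plch2 19.7% against 30.8%, Neurod2 22.1% against 27.8% and Prdm8 4.2% against 22.7%. The others were Ednra, Olfml2b, Il16, Hgf, Gm43154, Ramp3 and, by a narrow margin, Kcnj4 (27.2% against 27.4%). Bdnf was not among them, with a ceiling of 19.7% against 18.7%. The detection of Prdm8, or its ceiling, was below its value in cluster 17 in 19 of the 24 other clusters taken singly, Olfml2b in 15 and Ednra in 13. In the other direction, Nxph3 could be detected in at most 22.4% of nuclei of cluster 17, against 34.0% in cluster 23.

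**Figure D5:**
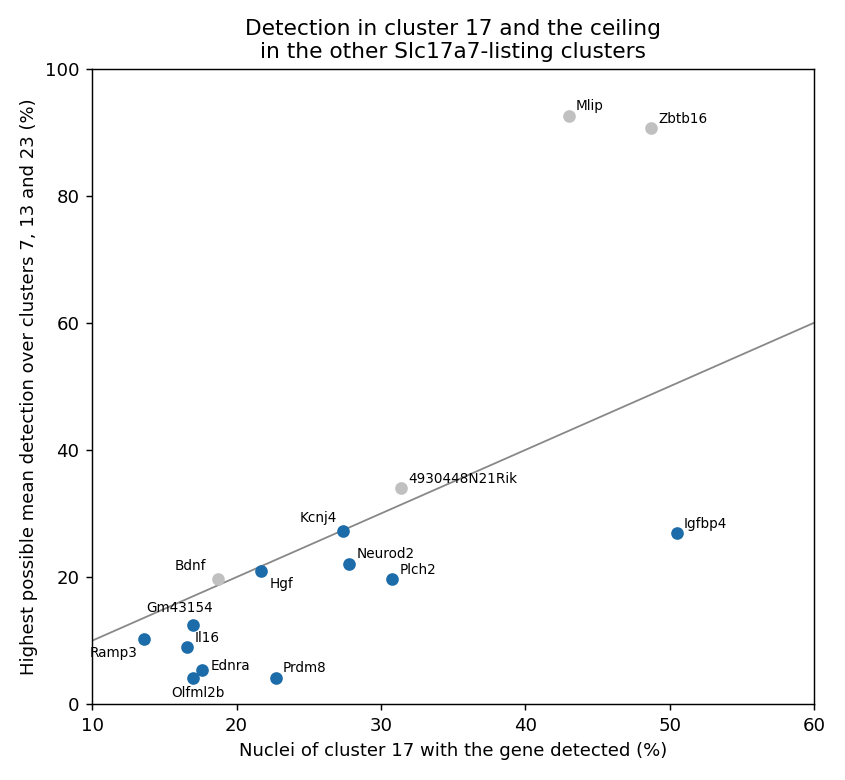
Detection in cluster 17 against the highest possible mean detection over clusters 7, 13 and 23, both in percent of nuclei, for the genes listed for none of these clusters and with a ceiling under 100%, with the line of equality. Igfbp4 lies farthest below the line (50.5% against 26.9%), and Bdnf lies just above it (18.7% against 19.7%).

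Beyond the excitatory clusters, genes of cluster 17 were shared with clusters of other kinds. Cluster 8, which listed 7 of the 10 astrocyte markers, shared Zbtb20, Nfia and Slc4a4. Zbtb20 was detected in 97.8% of nuclei in cluster 17 and 92.3% in cluster 8, Nfia in 82.2% and 81.4%, and Slc4a4 in 59.4% and 74.4% in the authors' deposited table. The other 6 astrocyte markers of cluster 8, with the glutamate transporter genes Slc1a2 and Slc1a3 among them, were not listed for cluster 17, and nuclei that hold both cell types were not tested for. Cluster 14, which listed 9 of the 11 medium spiny neuron markers, shared 4930448N21Rik, 6530403H02Rik, Cacna2d3, Kcnd2, Kcnj4, Slc4a4 and Zbtb20. Kcnj4 was detected in 27.4% in cluster 17 and 17.9% in cluster 14 in the authors' deposited table.

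Genes of cluster 17 also stood in the tables of GABAergic nuclei. Of the 50 genes, 27 were also listed in the table of GABA subclusters, against 63.8% of the broad table's genes, and 16 in the table of Sst subclusters, against 31.3%. GABA subcluster 13 listed 9 of them, the most of any GABA subcluster, among them Slc4a4, Zbtb20, Cacna2d3 and Kcnj4. GABA subcluster 17 and Sst subcluster 6 both listed Gm20754, Igfbp4, Plch2, Il1rapl1 and Tcf4. In the authors' deposited table Igfbp4 was detected in 18.2% of nuclei of GABA subcluster 17 against 1.5% outside it, Plch2 in 13.1% against 0.6% and Gm20754 in 47.6% against 8.7%. Detection inside was the same to the last digit for these 3 genes in Sst subcluster 6 (18.2%, 13.1% and 47.6%), and these are not counted as separate results. In cluster 17 the same genes were detected in 50.5%, 30.8% and 96.4% of nuclei in the authors' deposited table.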

How the data were processed

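Nuclear RNA of pooled lateral septum tissue from 8 mice was sequenced as 3 libraries, which form 1 group. Per the submitters' processing notes, Seurat 4 and the build mm10 were used. Aligner, filters, doublet treatment, clustering and test: not given in the sources used. For each listed gene the authors deposited a log2 fold change, the fraction of nuclei positive inside and outside the cluster (printed here as percentages), and p-values. These p-values treat nuclei as replicates and serve here only in 1 alternative filter and for the order of the lists. Depth is unknown, so no counting interval was computed.

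Shares of nuclei were solved by least squares, with ranges from linear programming over the rounding of the fractions, and tested on simulated data. Tools were Python 3.11.15 with scipy 1.17.1, numpy 2.4.6, pandas 2.3.3 and, for figures, matplotlib 3.10.9. By rule, any gene of the list could be named, and of other genes the markers listed for clusters 13 or 23 and their 5 leading genes. Other genes of clusters 7 and 8, and Grm3, Satb1, Myocd, Gm2824 and Pamr1, were chosen after their values were seen. The members and lists were chosen with earlier results of these data known. Role groups, the joint ceiling over clusters 7, 13 and 23 and gene spans were chosen after values were seen.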

Additional observations from a re-analysis of the deposited data

How the results depend on the processing

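With a minimum log2 fold change of 2, cluster 17 kept 39 genes and shared 4 in place of 7 with cluster 23, because Kcnd2, Kcnip4 and Ptprd are under that minimum in at least 1 of the lists. The other counts, with that minimum, with detection of at least 25% inside or with adjusted p under 0.001, stayed within 1.5 times. The share of nuclei in cluster 17 was 1.75% or 1.76% under 3 other solutions. The counts of genes under a ceiling in cluster 13 (2) and cluster 23 (0) did not move with the lowest shares or without subtracting other listings. An alternative chosen after seeing the data, the lowest shares of clusters 7, 13 and 23, gave 10 genes in place of 11, without Kcnj4. Nxph3 had a ceiling of 24.1% in cluster 17 at its lowest share. Of the 10 genes of largest log2 fold change, 8 were among the first 10 by ratio of detection and 1 by difference. No library could be left out, since no value per library was used. No paired analysis was possible because the libraries form 1 group and the results come from no test.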
